A study of Mus musculus with 4 samples.

Results

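The Hoxa cluster is a row of homeobox genes that are read in order along the body axis of the embryo, and 9 of its genes, Hoxa2, Hoxa3, Hoxa4, Hoxa5, Hoxa6, Hoxa7, Hoxa9, Hoxa10 and Hoxa11, are described here in paralog order. They were taken by symbol from a table of 23235 genes, and all 9 were present. RNA was measured in 4 mouse cultures, with 1 library each. Embryonic stem (ES) cells of strain 129S4/SvJae, grown in serum with leukemia inhibitory factor, were taken at day 0 and were either wild type on the J1 background (WT_ES) or lacked both Dnmt3a and Dnmt3b (DNMT3A/B DKO; DKO_ES), the genes of the de novo DNA methyltransferases, which methylate sites that had no methyl group. Neural progenitor cells of each line (WT_NP and DKO_NP) were collected on day 6, after 4 days as embryoid bodies without and 2 days with retinoic acid. All cultures had earlier been kept on irradiated feeder cells and were passaged off them onto gelatin. The labels name no clone for the knockout and no second culture of any group, so no difference below has a replicate check.

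Hox proteins are transcription factors that give cells their position along the head to tail axis. Genes at the 3′ end of a cluster (low paralog numbers) are switched on early and far forward, in the hindbrain, and genes at the 5′ end (high numbers) later and farther back. Retinoic acid, which acts through nuclear receptors bound near the 3′ genes, switches Hox genes on in ES cells, and in undifferentiated cells the clusters are held silent by Polycomb complexes. Hoxa2 patterns the hindbrain and the second pharyngeal arch, Hoxa3 the third arch and its glands, Hoxa4 and Hoxa5 the neck region, and Hoxa5 also the lung. Hoxa6 and Hoxa7 act in the trunk, Hoxa9 in the trunk and in blood progenitors, and Hoxa10 and Hoxa11 in the lumbosacral spine, limb and reproductive tract.

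Sequences upstream of 3 members are shown because these genes lie on either side of the main break in expression: Hoxa2 and Hoxa5 were expressed at day 6, and Hoxa6, the next gene after Hoxa5, was at or below 1 FPKM (reads scaled by transcript length and library size). Each run covers the bases from 250 to 51 before the RefSeq start site, on the minus strand of build GRCm38.p6, and CpG dinucleotides, the sites of DNA methylation, are in capitals.
Hoxa2, chr6:52164882-52165081: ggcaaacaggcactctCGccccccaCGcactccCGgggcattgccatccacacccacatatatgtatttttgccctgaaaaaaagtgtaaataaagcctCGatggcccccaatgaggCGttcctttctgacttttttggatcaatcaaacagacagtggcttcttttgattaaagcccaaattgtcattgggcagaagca
Hoxa5, chr6:52204638-52204837: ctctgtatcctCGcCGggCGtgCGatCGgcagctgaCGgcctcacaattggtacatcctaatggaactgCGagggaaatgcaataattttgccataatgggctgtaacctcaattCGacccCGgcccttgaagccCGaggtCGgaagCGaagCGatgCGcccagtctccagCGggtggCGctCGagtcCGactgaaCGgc
Hoxa6, chr6:52208723-52208922: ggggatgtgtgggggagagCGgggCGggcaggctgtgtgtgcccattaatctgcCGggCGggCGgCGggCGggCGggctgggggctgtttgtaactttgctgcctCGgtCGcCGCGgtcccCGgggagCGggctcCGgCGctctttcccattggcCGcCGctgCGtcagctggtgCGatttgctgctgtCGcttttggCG

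Upstream of Hoxa2 the window held 5 CpGs, with a ratio of observed to expected CpGs of 0.458, while the windows of Hoxa5 and Hoxa6 held 19 (1.09) and 22 (0.926). Hoxa6, at 1 read in wild-type progenitors, thus had the most CpGs of the 3 in these 200 bases, and Hoxa2, an expressed gene, the fewest. This contrast did not hold over the other members. Hoxa3, also expressed at day 6, had 15 CpGs, but its window lies far upstream, between those of Hoxa6 and Hoxa7. That window holds exons of Hoxa3 and of other transcripts, and whether its start site was the one used here is not known. Among members below 1 FPKM in every library, Hoxa9 had 3 CpGs, Hoxa7 6, Hoxa11 11 and the Hoxa10 windows 7 and 15. The Hoxa7 and Hoxa11 windows also hold exons. RefSeq windows were found for 8 of the 9 members, 9 windows in all, and 5 of the 9 (55.6%) had a ratio of at least 0.6 and a GC content of at least 50%, against 27.8% of 32851 mouse promoter windows of the same length. The letters AGGTCA, a half-site of retinoic acid receptors, were found on neither strand of the 9 windows, and in 11.4% of all windows. TTTATG, which Cdx proteins can bind, was in the Hoxa7 window and in 8.78% of all windows, and TGATNNAT, a form bound by Hox proteins with their cofactors, was in the Hoxa2 window and in 6.44% of all windows. A match of letters is a description and does not show binding.

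The libraries and labels were checked before the members were compared. Low values came in steps of single reads, which gave denominators of about 15.7 M reads in WT_ES, 17.1 M in DKO_ES, 41.4 M in WT_NP and 28.6 M in DKO_NP, so the day 6 libraries were the deeper ones. For the deleted genes, Dnmt3a had 35.3 FPKM in wild-type and 12.3 in knockout ES cells, and 17.2 and 4.14 in the progenitors. Dnmt3b had 140.3, 13.9, 9.98 and 5.22 FPKM in the same order. The 8 ES cell markers checked (Pou5f1, Nanog and others) summed to 7489 and 8274 FPKM at day 0 and to 96.6 in WT_NP and 408 in DKO_NP. The 10 neural progenitor markers (Sox1, Pax6, Nes and others) summed to 55.4 and 63.1 FPKM at day 0, 101 in WT_NP and 294 in DKO_NP. The 5 forebrain markers summed to 29.9 and 35.5 FPKM at day 0, nearly all of it Otx2 (29.4 and 34.4), which ES cells also express, and to 2.62 and 5.14 at day 6. Of these, Otx2 was lower at day 6 (0.827 and 1.24 FPKM), while Lhx2 had 0.336 and 0.618 FPKM at day 0 and 1.29 and 2.52 at day 6. WT_NP also held 10 mesoderm markers at a sum of 78.9 FPKM, 8 endoderm markers at 127 and 5 blood markers at 765, against 22.5, 31.0 and 73.7 in DKO_NP, and no marker of these lists was at 0 in either library. The blood sum in WT_NP was nearly all from the embryonic globins Hbb-bh1, Hba-x and Hbb-y (328.1, 241.9 and 193.3 FPKM). Gata1 and Runx1 had 1.37 and 0.381 there. Most mesoderm markers were lower in DKO_NP, but Tcf15 had 1.63 FPKM in WT_NP and 4.81 in DKO_NP. Neural crest markers (4) summed to 4.29 and 2.60 FPKM and fibroblast or feeder markers (5) to 54.9 and 33.2 in the same pair. Hoxa genes are also used by mesoderm, so these sums stand beside every day 6 comparison below, and their part in the results was not tested. In bulk RNA, fewer cells that express a gene and less RNA of it per cell cannot be told apart.

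In ES cells the cluster was at or near 0. The highest member was Hoxa4 in WT_ES, at 0.144 FPKM, and Hoxa7 in DKO_ES, at 0.100. WT_ES held about 15 reads over the 9 genes together, with Hoxa2 listed at 0, and DKO_ES held about 5, with Hoxa2, Hoxa5, Hoxa6, Hoxa9, Hoxa10 and Hoxa11 listed at 0. The 5 fibroblast or feeder markers summed to 60.4 FPKM in WT_ES and 15.6 in DKO_ES, with 3 of 5 at least 2-fold lower in the knockout and none at 0, and their part in these few reads was not tested. An exact 0 is given only as listed, because Lars2, a gene of mitochondrial protein synthesis that every cell needs, is also listed at 0 in WT_ES and stands at 10341 FPKM in DKO_ES. No member reached 1 FPKM in either ES library, so none could be counted in the comparison of DKO_ES with WT_ES, in which 2.56% of 13596 genes were higher by 2-fold or more and 1.15% lower (2.62% and 1.52% as deposited). The members' differences in log2(FPKM + 1) between these libraries lay between -0.13 and 0.00, and at this depth no difference was detectable: Hoxa4 had 3 reads in WT_ES and 1 in DKO_ES, and Hoxa7 had 3 in each.

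At day 6 of wild-type differentiation the cluster was split at a single point, with Hoxa2, Hoxa3, Hoxa4 and Hoxa5 expressed and every later member below 1 FPKM. Hoxa2 was listed at 0 in WT_ES and stood at 12.1 FPKM in WT_NP (95% counting interval 11.3 to 13.0). Hoxa3 stood at 0.0272 FPKM in WT_ES and 10.3 in WT_NP (9.70 to 11.0), which is 1 read against 1000. Hoxa4 stood at 0.144 FPKM in WT_ES and 14.7 in WT_NP (13.7 to 15.7), and Hoxa5 at 0.114 and 19.7 (18.7 to 20.8). The 4 genes lay within a narrow band in WT_NP, in the order Hoxa5, Hoxa4, Hoxa2 and Hoxa3 from high to low, and the counting intervals of neighbours in that order did not overlap. FPKM is per length, so these levels can be set beside each other, within limits. The lengths behind the values are not given, and parts of Hoxa2, Hoxa3 and Hoxa4 overlap other annotated genes (below). Small differences between these genes, such as that of Hoxa2 and Hoxa3, are therefore uncertain beyond the counting intervals.

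**Figure D1:**
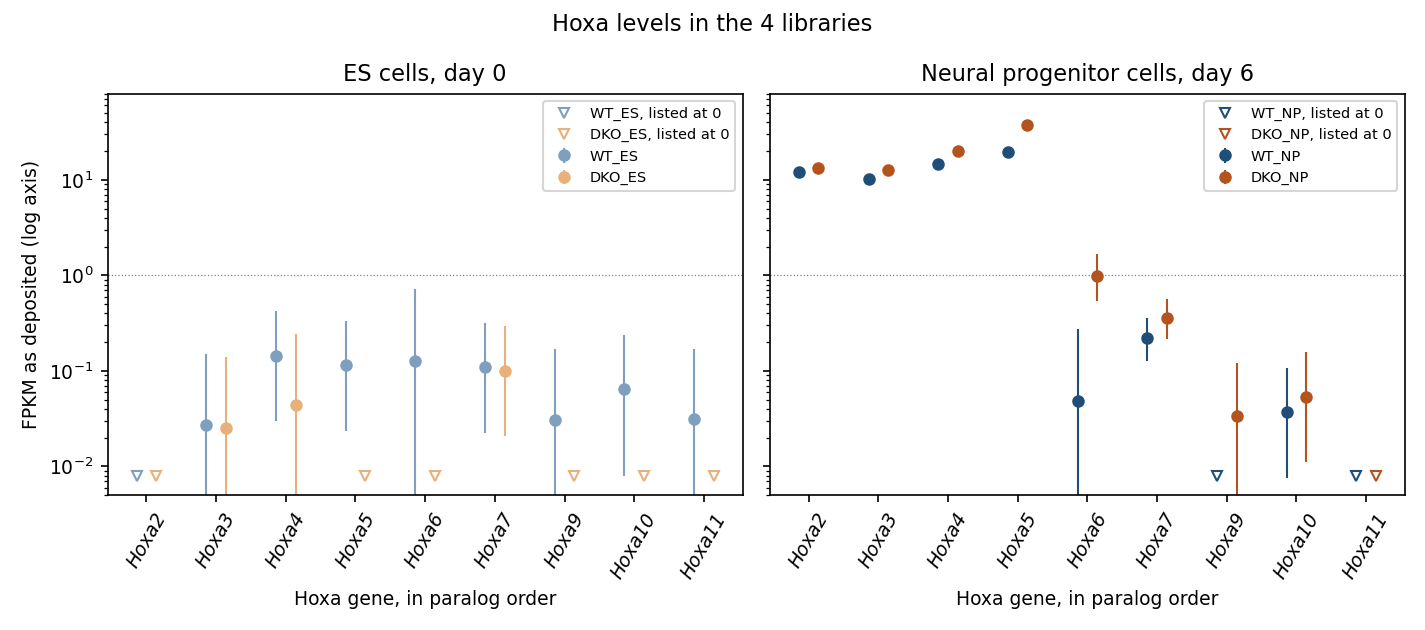
FPKM as deposited (log axis) of the 9 Hoxa genes in paralog order, for the ES cell libraries (left) and the neural progenitor libraries (right); bars are 95% counting intervals, open triangles at the bottom mark values listed at 0, and the dotted line is at 1 FPKM. Hoxa2 to Hoxa5 lie between 10.3 and 37.2 FPKM at day 6, while Hoxa6 to Hoxa11 lie at or below 0.990 FPKM.

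Folds were taken after median scaling, which sets the median gene of each library to the same level and is used because the median gene was shifted by a log2 ratio of -0.82 between WT_ES and WT_NP as deposited. On that scale the level of Hoxa3 in WT_NP was 748 times that in WT_ES (133.9 to 29561), that of Hoxa4 200 times (68.2 to 972.5) and that of Hoxa5 340 times (116 to 1651). Only 1 to 3 reads stand behind each ES value, so the size of these folds is poorly known, as the intervals show. With a pseudocount of 1 FPKM the log2 ratios of Hoxa2, Hoxa3, Hoxa4 and Hoxa5 were 4.26, 4.01, 4.37 and 4.81. Thus 4 of the 9 members were at least 2-fold higher and 0 lower, where 16.2% of 14086 genes were higher and 11.3% lower (6.40% and 41.7% as deposited). The 4 are also the only members that reached 1 FPKM, and they reached it in WT_NP alone, so their count and their median of 4.31 restate that they are high there. Over all 9 members the median log2 ratio was 0.30, beside 0.01 over all genes tested.

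Beyond Hoxa5 the wild-type cluster was nearly silent. Hoxa6 stood at 0.128 FPKM in WT_ES and 0.0488 in WT_NP, which is 1 read in each library in the smallest whole-number solution. Hoxa7 stood at 0.109 and 0.221 FPKM, 3 reads against 16, and was 3.99-fold higher in WT_NP after scaling (1.14 to 21.4), or 2.03-fold as deposited (0.581 to 10.9). It was the only one of the 5 later genes with more than 3 reads in WT_NP. Hoxa9 and Hoxa11 were listed at 0 in WT_NP and at 0.0307 and 0.0312 FPKM in WT_ES, and Hoxa10 stood at 0.0650 and 0.0371 FPKM in WT_ES and WT_NP. A value of 3 reads corresponds to 0.0351 FPKM of Hoxa9 in WT_NP, so levels under that were not detectable. From Hoxa5 to its neighbour Hoxa6 the level in WT_NP was 403.5-fold lower (72.3 to 15949), and from Hoxa5 to Hoxa7 89.0-fold lower (54.6 to 156).

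In knockout cells the same 4 genes were the ones above 1 FPKM at day 6. Hoxa2 was listed at 0 in DKO_ES and stood at 13.2 FPKM in DKO_NP (12.2 to 14.3), Hoxa3 at 0.0250 and 12.6 (11.8 to 13.5), Hoxa4 at 0.0442 and 20.1 (18.7 to 21.5), and Hoxa5 was listed at 0 and stood at 37.2 (35.5 to 39.0). The order from high to low was again Hoxa5, Hoxa4, Hoxa2 and Hoxa3, with overlapping intervals for Hoxa2 and Hoxa3. Hoxa3 was 695-fold higher in DKO_NP than in DKO_ES (124 to 27479) and Hoxa4 626-fold (112 to 24773), each from 1 read in DKO_ES. The log2 ratios of Hoxa2 to Hoxa5 were 3.96, 3.87, 4.48 and 5.39, so that 4 of 9 members were at least 2-fold higher and 0 lower, where 11.8% of 14050 genes were higher and 11.2% lower (7.84% and 21.8% as deposited). Here too the 4 passed the filter through their day 6 level alone, so the count restates that they are high in DKO_NP. Hoxa6 stood just under the filter of 1 FPKM, at 0.990 in DKO_NP against a listing at 0 in DKO_ES, and its log2 ratio was 1.06. The median over all 9 members was 1.06, beside -0.03 over all genes. Hoxa7 stood at 0.100 and 0.361 FPKM (3 and 18 reads), Hoxa9 at 0 and 0.0338, Hoxa10 at 0 and 0.0536, and Hoxa11 was listed at 0 in both knockout libraries. Hoxa9, Hoxa10 and Hoxa11 together had 5 reads in DKO_NP and 3 in WT_NP, so the 5′ end of the cluster was at the limit of detection at day 6 in both genotypes.

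Between the day 6 libraries the expressed Hoxa genes differed by less than 2-fold, and the ratio of knockout to wild type grew with paralog number. After median scaling Hoxa2 was at 0.804 of its wild-type level in DKO_NP (0.722 to 0.897), Hoxa3 at 0.900 (0.820 to 0.988), Hoxa4 at 1.01 (0.914 to 1.12) and Hoxa5 at 1.39 (1.30 to 1.50). None of the 9 members was at least 2-fold higher or lower among the 4 that reached 1 FPKM, where 4.76% of 13601 genes were higher and 7.99% lower (10.2% and 3.90% as deposited). The absolute direction depends on scaling: as deposited the ratios of Hoxa2, Hoxa3, Hoxa4 and Hoxa5 were 1.09, 1.22, 1.37 and 1.89, with upper quartile scaling 0.743, 0.832, 0.934 and 1.29, and with scaling to the sum of FPKM 1.77, 1.98, 2.22 and 3.07, so that Hoxa4 and Hoxa5 pass 2-fold there. Hoxa5 was thus higher in DKO_NP under each of these scalings, whereas Hoxa2, Hoxa3 and Hoxa4 changed side. The order of the 4 ratios does not depend on scaling, since each scaling multiplies them all by 1 factor.

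**Figure D2:**
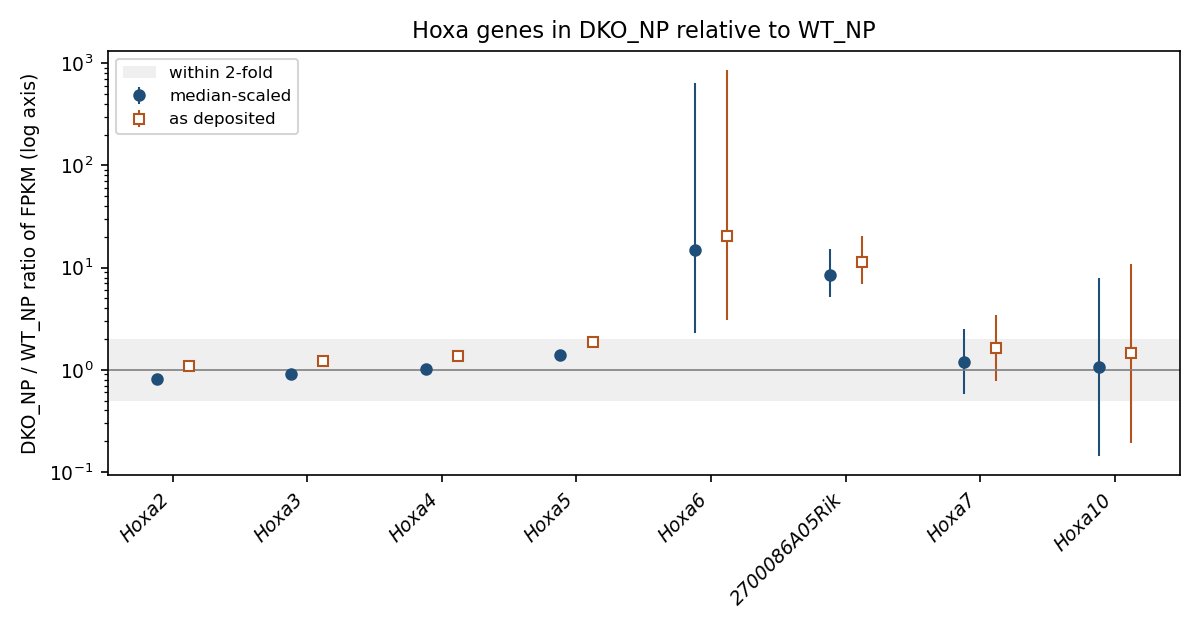
Ratio of FPKM in DKO_NP to that in WT_NP (log axis) for Hoxa genes in paralog order and for the antisense transcript 2700086A05Rik, placed after Hoxa6; filled circles are median-scaled, open squares as deposited, bars are 95% counting intervals and the grey band spans 2-fold in either direction. Scaled ratios go from 0.804 for Hoxa2 to 1.39 for Hoxa5, and those of Hoxa6 and 2700086A05Rik are 15.0 and 8.43. Hoxa9 and Hoxa11 have no ratio because they are listed at 0 in WT_NP.

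Ratios between genes inside a library are free of any scaling. They are the same values arranged another way and no further support for the order of the ratios above. Hoxa5 stood at 1.62 times the level of Hoxa2 in WT_NP (1.49 to 1.77) and at 2.81 times in DKO_NP (2.56 to 3.09). It stood at 1.91 times Hoxa3 in WT_NP (1.76 to 2.07) and 2.95 times in DKO_NP (2.72 to 3.21), and at 1.34 times Hoxa4 (1.23 to 1.47) and 1.85 times (1.70 to 2.02). For neighbours lower in the cluster the intervals of the genotypes overlapped, at 0.851 (0.774 to 0.936) and 0.953 (0.856 to 1.06) for Hoxa3 over Hoxa2, and at 1.42 (1.29 to 1.56) and 1.59 (1.44 to 1.76) for Hoxa4 over Hoxa3. Hoxa5 made up 34.5% of the summed FPKM of the 9 genes in WT_NP and 44.0% in DKO_NP, while Hoxa2 made up 21.2% and 15.6%. These intervals cover counting error alone, and how much such ratios vary between cultures was not measured.

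The member with the largest ratio was Hoxa6. It had 1 read in WT_NP (0.0488 FPKM) and 14 in DKO_NP (0.990 FPKM), a ratio of 15.0 after scaling (2.28 to 633) and 20.3 as deposited (3.08 to 857). The step down from Hoxa5 to Hoxa6 was smaller in the knockout, 37.6-fold (22.3 to 68.9). Per length, Hoxa7 stood at 4.53 times the level of Hoxa6 in WT_NP (0.704 to 190.1) and at 0.364 of it in DKO_NP (0.171 to 0.791). Hoxa7 itself was within its counting error between genotypes, at a ratio of 1.20 (0.579 to 2.52). The read numbers of Hoxa6 are the smallest that match the steps of its values, and they imply a transcript of 709 bases, where the annotation used here has 874.

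An antisense transcript of the same stretch was higher in the same library as Hoxa6. 2700086A05Rik, now named Hoxaas3, is a long RNA without protein product, read from the opposite strand across the region of Hoxa5 and Hoxa6. It was listed at 0 in both ES libraries and had 0.651 FPKM in wild-type and 7.43 in knockout progenitors, about 17 and 136 reads, a ratio of 8.43 after scaling (5.15 to 15.1). The protocol is not stated to keep strand, so reads of overlapping genes cannot be told apart. In the GENCODE M21 annotation no exon of another gene overlaps an exon of Hoxa5 or Hoxa6, but Hoxaas3 exons cover part of Hoxa7, of whose exon bases 20.4% are overlapped on the opposite strand, and part of Hoxa3 (25.4%, with 3 other genes). For Hoxa4 and Hoxa11 the overlapped share was 16.0% and 35.0%, and 15.0% of Hoxa2 is shared with Gm28308, a gene model on the same strand that runs across the cluster. Hoxa11as, antisense to Hoxa11, had at most 2 reads in any library.

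The difference between the differentiation ratios of the genotypes was computed for each member. Knockout minus wild type, it was -0.30 for Hoxa2, -0.14 for Hoxa3, 0.11 for Hoxa4, 0.59 for Hoxa5, 1.10 for Hoxa6, 0.07 for Hoxa7, 0.09 for Hoxa9, 0.07 for Hoxa10 and 0.03 for Hoxa11. None of the 4 members that reached 1 FPKM in any library differed by 1 or more, where 4.31% of 14713 genes had a difference of at least 1 and 8.81% of at most -1. Hoxa6 passed 1 but not the filter on level. These differences share their libraries with the comparisons above and are no separate evidence.

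Genes beyond the 3′ border of the cluster did not share the pattern of its expressed members. Skap2, an adaptor protein gene beyond the 3′ end of the cluster, had 41.5 and 41.1 FPKM in the ES libraries (wild type, then knockout) and 36.3 and 43.2 in the progenitors. Snx10, a sorting nexin gene farther along on that side, stood at 29.2, 33.7, 6.25 and 14.6 FPKM in the same order. After scaling, Skap2 was 1.72-fold (wild type) and 1.45-fold (knockout) higher at day 6, and Snx10 2.38-fold and 1.67-fold lower. At the other end Hoxa13, a Hoxa gene outside the member list, had at most 3 reads in any library (0.0438 to 0.115 FPKM). It was thus near the limit of detection, as were Hoxa9, Hoxa10 and Hoxa11.

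In the other Hox clusters, 8 of 8 Hoxb genes that reached 1 FPKM in the wild-type pair were at least 2-fold higher at day 6, 2 of 3 Hoxc genes and 2 of 3 Hoxd genes (8 of 9, 2 of 3 and 2 of 4 in the knockout pair), beside 16.2% of all genes in the wild-type pair and 11.8% in the knockout pair. All Hoxb genes were below 1 FPKM in both ES libraries (at most 0.586), so the Hoxb genes counted passed the filter through their day 6 level and their count mainly restates it. The same holds for the higher Hoxc and Hoxd genes, Hoxc4, Hoxc5, Hoxd3 and Hoxd4 (at most 0.296 FPKM in the ES libraries). In Hoxc the level was lower past the same paralogs as in Hoxa, from Hoxc5 at 16.6 FPKM to Hoxc6 at 0.261 in WT_NP (63.4-fold) and from 33.6 to 0.731 in DKO_NP (46.0-fold). In Hoxd the level went from 11.1 FPKM for Hoxd4 to 0.931 for the next gene, Hoxd8, in WT_NP, a smaller step than in Hoxa, and from 45.9 to 0.947 in DKO_NP (48.5-fold), where the Hoxa step was 37.6-fold. In Hoxb there was no such step between paralogs 5 and 6: Hoxb5 and Hoxb6 stood at 8.37 and 3.05 FPKM in WT_NP and at 27.4 and 33.7 in DKO_NP. A drop lay farther along, from Hoxb8 at 1.31 FPKM to Hoxb9 at 0.174 in WT_NP and from 13.5 to 1.14 in DKO_NP. Of 10 Hoxb genes at or above 1 FPKM at day 6, 4 were at least 2-fold higher in DKO_NP and 1 was lower, with a median log2 ratio of 0.67. The highest Hoxb genes in WT_NP were Hoxb2 (23.8 FPKM, and 46.2 in DKO_NP) and Hoxb4 (17.8 and 25.0), and the largest ratios were those of Hoxb6 and Hoxb8 (1.31 and 13.5 FPKM, 7.65-fold). Of the 3 Hoxd genes that reached 1 FPKM at day 6, 2 were higher, Hoxd3 at 2.26-fold and Hoxd4 at 3.04-fold, beside 0 of 4 in Hoxa. A count of 0 among 4 genes is near the share over all genes and does not set Hoxa apart. The paralogs of Hoxa5 had ratios of 2.42 (Hoxb5) and 1.50 (Hoxc5), and those of Hoxa6 had 8.15 (Hoxb6) and 2.07 (Hoxc6, below 1 FPKM). At the 3′ end Hoxb1 was lower in DKO_NP, at 0.366 of its wild-type level. No test of a difference between clusters was possible with 1 library per group.

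**Figure D3:**
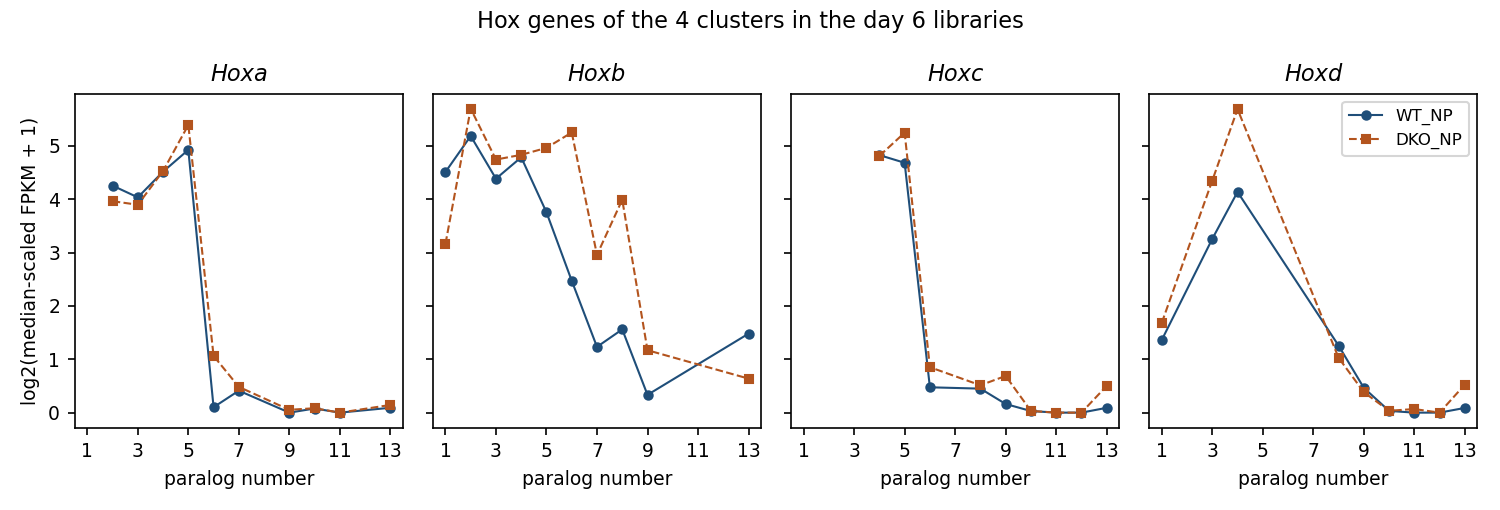
Level as log2(median-scaled FPKM + 1) of the genes of the Hoxa (from paralog 2 on), Hoxb, Hoxc and Hoxd clusters by paralog number, in WT_NP (circles, solid line) and DKO_NP (squares, dashed line). In Hoxa the level drops between paralogs 5 and 6 in both libraries, while in Hoxb paralogs 5 to 8 stay high in DKO_NP.

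Other genes of the pathway were counted from fixed lists, on the median-scaled log2 scale. Of 18 genes of retinoic acid signalling and metabolism, 16 reached 1 FPKM in the wild-type pair, and 12 of these were at least 2-fold higher and 1 lower in WT_NP (median log2 ratio 2.36). In the knockout pair the counts were also 12 higher and 1 lower of 16 (median 2.13). Some of the higher genes passed the filter through their day 6 level alone, so these counts and medians partly restate it. Examples are Cyp26a1 (0.443 FPKM in WT_ES and 0.222 in DKO_ES) and Cyp26b1 (0.283 and 0.0520). Between genotypes at day 6, 1 of 16 was higher and 3 were lower (median 0.09). Crabp2, a carrier of retinoic acid, was the 1 higher gene, with 253 and 719 FPKM in wild-type and knockout progenitors, 2.10-fold higher. Aldh1a2, which makes retinoic acid, stood at 6.35 and 1.83 FPKM, 4.68-fold lower in the knockout. Cyp26b1, which breaks it down, stood at 77.0 and 39.7 FPKM, 2.62-fold lower, and Cyp26a1, with the same role, at 102 and 226 FPKM, 1.64-fold higher after scaling.

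Cofactors that bind DNA together with Hox proteins were higher at day 6, with 7 of 9 at least 2-fold higher in the wild-type pair (median log2 ratio 2.39) and 6 of 9 in the knockout pair (2.44). Some of them, such as Meis1 and Meis2, were below 1 FPKM in both ES libraries, so these counts partly restate their day 6 level. Meis1 had 54.2 FPKM in wild-type and 38.0 in knockout progenitors. None of the 9 passed a log2 ratio of 1 in either direction between the day 6 libraries, and the nearest was Meis2 at -0.97 (32.0 and 21.7 FPKM). A count of 0 among 9 genes is near the share over all genes. Among 10 known upstream activators, 6 reached 1 FPKM at day 6, of which 2 were higher in DKO_NP and 2 lower (median -0.29). In the wild-type pair all 4 that reached 1 FPKM were higher at day 6, and in the knockout pair all 5. All of these but Gdf11 were below 1 FPKM at day 0, so their counts mainly restate their day 6 level. Cdx2, which activates central Hox genes, had 2.49 FPKM in wild-type and 0.631 in knockout progenitors, 5.34-fold lower. Cdx1, of the same family, went the other way, with 0.938 and 3.92 FPKM, 3.08-fold higher. Wnt3a, a signal of the tail bud, stood at 0.835 and 3.90 FPKM, 3.45-fold higher.

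Polycomb and Trithorax genes, which regulate Hox chromatin, stayed under 2-fold between the day 6 libraries, apart from Bmi1. Most genes did so too, with 4.76% of all genes higher and 7.99% lower, so these counts do not set the lists apart. Of 15 Polycomb genes 1 was at least 2-fold higher in DKO_NP, Bmi1, with 6.34 FPKM in wild-type and 21.6 in knockout progenitors, and 0 were lower (median 0.18). In the wild-type pair 4 were higher and 5 lower at day 6, and in the knockout pair 5 and 5. Bmi1 was also the only Polycomb gene at 2-fold between the ES libraries, with 3.45 FPKM in wild-type and 8.36 in knockout cells. Ezh2, the main histone methyltransferase of Polycomb, had 99.4 and 80.1 FPKM in the ES libraries and 34.6 and 53.3 in the progenitors, wild type before knockout. After scaling it was 1.46-fold and 1.09-fold lower at day 6 in the same order. Of 6 genes of the Trithorax and MLL complex, which keep Hox genes active, 0 passed 2-fold between the day 6 libraries (median 0.04), while 2 were lower at day 6 in the wild-type pair and 0 in the knockout pair. Mll1, its main methyltransferase at Hox genes, stood between 10.4 and 12.9 FPKM in the 4 libraries as deposited. After scaling it was 1.84-fold higher at day 6 in the wild-type pair and 1.61-fold in the knockout pair. Of 7 genes of DNA methylation, 1 was higher and 2 were lower in DKO_NP (median -0.82). The 2 lower ones were Dnmt3a and Dnmt3b, the deleted genes themselves. Dnmt3l, a partner of the deleted enzymes, was the higher one, at 1.73 and 12.4 FPKM in wild-type and knockout progenitors. Dnmt1, which copies methylation after replication, had 53.9 and 113.3 FPKM, 1.55-fold higher after scaling.

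Genes with the pattern most like that of the expressed members were found by distance over the 4 libraries, in log2(median-scaled FPKM + 1), among 14709 other genes. Nearest to the median of Hoxa2 to Hoxa5 was Dach1, a transcriptional regulator of development, at a distance of 0.170, with 14.4 FPKM in WT_NP and 16.0 in DKO_NP. It was followed by Hoxb3 (0.506), Mir297b (0.571), Hoxb4 (0.712), Ednrb (0.720), an endothelin receptor gene, and Nr2f1 (0.731), a nuclear receptor gene. By single members, the nearest 2 genes were Mir297b and Dach1 for Hoxa2, Mir297b and Zbtb16 for Hoxa3, Hoxb3 and Dach1 for Hoxa4, and Hoxc5 and Mir3101 for Hoxa5. Hoxc5, the paralog of Hoxa5, lay at 0.294 from it. The values of Mir297b and Mir3101 come from libraries of long RNA and do not measure the mature microRNAs. In WT_NP and DKO_NP they were 9.25 and 13.4 FPKM for Mir297b and 25.0 and 36.2 for Mir3101. Both pairs differ by the ratio of the library denominators, as the same number of reads in each library would give. For genes this short that number may be very small, so their likeness to Hoxa genes may rest on few reads. With 4 libraries such a likeness rests on 2 expressed values for each gene.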

How the data were processed

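Each of the 4 groups has 1 library, made from 5 µg of RNA depleted of rRNA with 15 PCR cycles and read for 50 cycles, per the labels' protocols. The authors deposited FPKM for 23235 symbols (18 blank rows left out); Bowtie, TopHat and mm9 are named in the submitters' processing notes. Versions, annotation and the program that made the FPKM values: not given in the sources used here. All 4 columns carry sample titles, and 0 were left unmapped.

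With Python 3.11.15, numpy 2.4.6, pandas 2.3.3 and scipy 1.17.1, libraries were divided by median factors (1.32, 1.25, 0.671 and 0.908 for WT_ES, DKO_ES, WT_NP and DKO_NP) computed on genes with 1 FPKM or more in every library. Log2 ratios used a pseudocount of 1 FPKM, which understates differences of low genes, for genes at or above 1 FPKM as deposited in either library, and a ratio of 1 (2-fold) was counted. No test was run. Folds of single genes have no pseudocount.

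Denominators relative to WT_ES (1.09, 2.63 and 1.82 in DKO_ES, WT_NP and DKO_NP) are the commonest exact ratios among genes below 0.15 FPKM. With them, 2665 of 4353 low genes (61.2%) and 7 members came out as whole reads within 0.05 read. Reads of Hoxa2 and Hoxa11 came from exon length less 214 bases, an offset fitted on 1061 genes. Intervals are exact 95% (Poisson for levels, Clopper-Pearson for ratios) and cover counting error only, since PCR copies are not independent molecules. Scripts were tested on simulated data.

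Gene lists (10) and marker lists (8) and the members were chosen with earlier results of these data known. Named are all members, up to 4 genes per list (highest in WT_NP, and largest ratio between day 6 libraries), the 6 genes nearest to the members' median and the 2 nearest to each member reaching 5 FPKM. Hoxb1, Hoxb5, Hoxb9, Hoxc6, Hoxa13, Hoxa11as, Hoxd8, Cdx1, Otx2, Lhx2 and Lars2 were named after their values were seen. So were the markers Tcf15, Hbb-bh1, Hba-x, Hbb-y, Gata1 and Runx1. Hotairm1, Hottip, Hoxaas2 and 5730596B20Rik were not matched, and some genes the rule picks are not reported here. Sequences are from RefSeq (GRCm38.p6) and exon overlaps from GENCODE M21, both matched by symbol and not the build of the values. Alternatives tried were other scalings, pseudocounts and filters.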

Additional observations from a re-analysis of the deposited data

Results flagged for a closer look

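For 2 members the log2 ratios of day 6 to day 0 had opposite signs in the 2 genotypes, with 1 library pair per genotype, and the difference was not tested. The wild-type values rest on single reads, so no wild-type change was detectable at this depth. Hoxa6 had a log2 ratio of -0.03 in wild-type cells and 1.06 in knockout cells (1 read in WT_ES and in WT_NP, 0 in DKO_ES and 14 in DKO_NP), and its wild-type fold was 0.748, with a counting interval of 0.00953 to 58.7. Hoxa9 had -0.03 and 0.05, which is 1 read in WT_ES and 2 in DKO_NP, with both other libraries listed at 0.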

How the results depend on the processing

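Of the counts and medians, 74 of 91 recomputed values stayed within 1.5 times the count or inside the counting interval, and none changed a called sign. Many of the 74 are counts of 0, as between the ES libraries, which could hardly move, so this number says little about the medians. The count of members at least 2-fold higher at day 6 was 4 in the wild-type pair under each scaling, pseudocount and filter tried, and 4 in the knockout pair except with no filter (5). Their wild-type median of 4.31 became 3.75 as deposited, 4.44 with upper quartile scaling, 3.76 with scaling to the sum of FPKM, 7.16 and 2.30 with pseudocounts of 0.1 and 5, and 0.30 with no filter. The knockout median of 4.22 became 4.76 with scaling to the sum, 7.28 and 2.20 with those pseudocounts, and 1.06 with no filter. The median of -0.06 between the day 6 libraries became 0.34 as deposited and 1.01 with scaling to the sum, under which 2 members, Hoxa4 and Hoxa5, were at least 2-fold higher; the 10 highest rows hold 54.6% to 64.9% of that sum. Between the ES libraries the filter leaves no member, and the median over all 9 was -0.03. A filter at 5 FPKM moved none of these values. Members whose differentiation ratio was at least 1 greater in the knockout numbered 1 as deposited (Hoxa5), 2 with scaling to the sum (Hoxa4 and Hoxa5), 1 with a pseudocount of 0.1 (Hoxa5) and 1 with no filter (Hoxa6). No library can be left out, since each group holds 1. Members beyond Hoxa5 rest on at most 18 reads.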
